A study of Mus musculus with 6 samples.

Results

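The proprotein convertases of the Pcsk family were followed in mouse E14 embryonic stem cells that lack the histone methyltransferase Dot1l. The set was given as 8 names, Furin, Pcsk1, Pcsk2, Pcsk4, Pcsk5, Pcsk6, Pcsk7 and Pcsk1n, which were chosen by family membership with their fold changes in these same data already known. The gene table lists 7 of the 8 among its 19571 genes, and no expression value of Pcsk5 is analysed here. Because the members were chosen from the same comparison, their fold changes and p-values are a description and support nothing. Of the 7, 6 are proteases; Pcsk1n encodes proSAAS, which is no protease but an inhibitor of the Pcsk1 enzyme.

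The data are from RNA sequencing of 3 samples of Dot1l -/- cells (Dot1l KO), made by CRISPR/Cas9, and 3 samples of wild-type (WT) cells of the same line. Both groups were grown on gelatin in serum with LIF, and all samples are labelled day 14, counted from an event that the labels do not name. The labels do not say whether the KO samples are 1 clone or several, or whether replicates are separate cultures, so p-values measure only the spread between these samples. The question was which transcripts differ when Dot1l, the enzyme that methylates lysine 79 of histone H3, is lost.

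The authors' deposited table gives for each gene a mean normalized count over all libraries and the log2 fold change between genotypes with its standard error (SE), p and adjusted p. Values per sample were not analysed here, so neither library depth nor sample-to-sample spread is known. The level of each gene in each genotype was therefore implied from its mean and its fold change, for groups of equal size, and carries no error of its own. Nothing in the files names the genotype that a positive sign stands for. Positive was taken to mean more RNA in Dot1l KO because of the retroviral element MERVL, known from published work to be released without Dot1l. It has a positive value in the authors' deposited repeat table, which lists single repeat copies. How many MERVL copies share that sign, and with what error, is not given here. With the other sign every direction given here would turn around. All 8 pluripotency markers are in the table, at means from 5956 to 44589 normalized counts, and 0 of them were called. The smallest p-values among them were those of Tdgf1, Utf1, at -0.76 ± 0.44, and Zfp42, at 0.49 ± 0.36, per the authors' deposited table. Dot1l itself had -0.16 ± 0.25 (SE) per the authors' deposited table, adjusted p = 0.845, so its RNA level does not check the genotype labels.

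Proprotein convertases are subtilisin-like serine proteases of the secretory pathway. They cut precursor proteins after pairs or clusters of basic residues and so release active hormones, growth factors, receptors and metalloproteases. Furin, Pcsk5, Pcsk6 and Pcsk7 work in the constitutive pathway of many cell types, Pcsk1 and Pcsk2 in the granules of neurons and endocrine cells, and Pcsk4 chiefly in germ cells. In the mouse embryo, Furin and Pcsk6 are known for cleaving the precursor of Nodal, the signal that patterns the epiblast.

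A stretch that the convertases have in common is the one around the catalytic serine. It was found in the coding sequences of GENCODE release M21 as a glycine, threonine and serine codon followed by 3 further codons and one for proline or histidine. Each of the 6 listed convertases in the table held 1 such match, and Pcsk1n held 0. Mbtps1, a convertase outside the list, also held 1, so the match does not set the listed genes apart. The 33 bases centred on the serine codon, which is in capitals, are shown 5′ to 3′ on the coding strand to let the members be compared:
Furin: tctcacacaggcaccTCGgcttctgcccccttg
Pcsk1: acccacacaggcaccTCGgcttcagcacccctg
Pcsk4: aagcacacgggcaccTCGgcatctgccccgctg
Pcsk6: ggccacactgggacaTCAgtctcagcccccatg
Pcsk7: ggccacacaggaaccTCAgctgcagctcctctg
Pcsk2: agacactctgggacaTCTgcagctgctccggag

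The serine is codon 368 of Furin, 382 of Pcsk1, 370 of Pcsk4, 410 of Pcsk6, 405 of Pcsk7 and 383 of Pcsk2. Furin and Pcsk1 shared 28 of the 33 bases, the most among these 6 genes, whereas Pcsk2 shared 19 with either of them, the fewest. Mbtps1 shared from 17 (Pcsk1, Pcsk4) to 20 (Pcsk2) of the bases with these 6 genes. Long identical stretches were not shared. Over the annotated transcripts of the 21 pairs of members, the longest run of bases in common was 24, between Furin and Pcsk4, and the shortest such maximum was 11.

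In the authors' comparison 0 of the 7 genes were called higher in Dot1l KO and 2 were called lower, Pcsk4 and Pcsk1n, at an adjusted p under 0.05 in DESeq2's Wald test. Of all genes tested, 5.34% were called higher, 1.25% lower and 6.58% in either direction. At an unadjusted p under 0.05, 2 of the 7 were higher, Pcsk1 and Pcsk6, and 2 lower, where 16.2% of all genes had such a p in either direction. The median log2 fold change was -0.28 over the 7 members and -0.02 over all genes. Nothing is read from these counts, since the members were picked with them known.

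**Figure D1:**
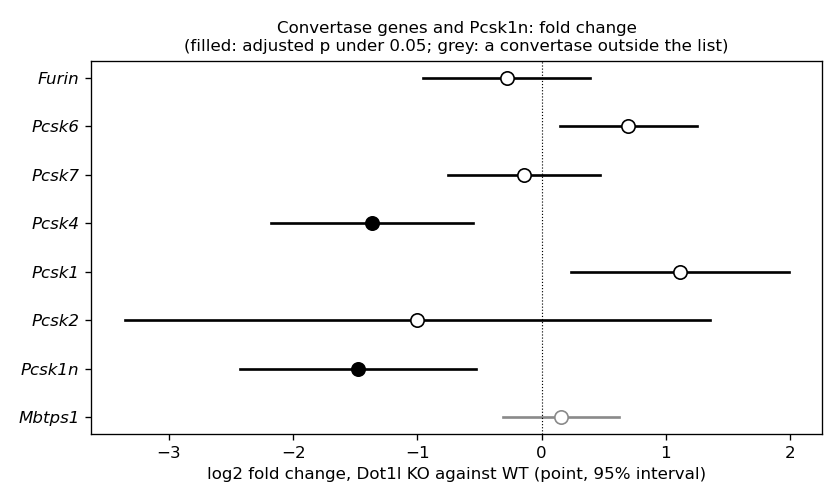
Log2 fold change (Dot1l KO against WT) of the 7 listed genes in black and of the convertase Mbtps1 in grey, as points with 95% intervals; filled points have an adjusted p under 0.05. The intervals of Pcsk4 and Pcsk1n lie below 0, those of Pcsk6 and Pcsk1 above it, and those of Furin, Pcsk7, Pcsk2 and Mbtps1 cross it.

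Among the listed convertases, that is without Pcsk1n and Mbtps1, the constitutive enzymes made up most of the RNA per kb of exon. Pcsk6 (PACE4; chromosome 7, 65861734 to 66050386 in mm10, plus strand) encodes a convertase that binds the extracellular matrix through heparan sulfate. Its implied level was 1533 normalized counts in WT and 2484 in Dot1l KO, 1.62-fold higher in KO. The authors' deposited table gives a log2 fold change of 0.70 ± 0.28 (SE; 95% interval 0.14 to 1.25), adjusted p = 0.134, so Pcsk6 did not pass. Genes of its abundance had a median of -0.22; when the fold changes were centred within 20 bins of mean count, Pcsk6 stood at 0.91 and passed (adjusted p = 0.0301, Wald test on the centred values). It was the sole member that gained a call under any of the 7 alternatives run. Of the 10 primitive endoderm markers 7 were called higher and 0 lower, where 5.34% of all genes were called higher. Their summed implied level was 3803 in WT and 7618 in KO. Of these sums Lama1, which was not called, gave 2871 and 3597, and Col4a1 gave 350 and 2351. The part of these markers in the value of Pcsk6 was not tested.

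Furin (chromosome 7, 80388585 to 80405436, minus strand) encodes the prototype convertase, which cycles between the trans-Golgi network and the cell surface. Its implied level was 921 normalized counts in WT and 758 in KO. The authors' deposited table puts it at -0.28 ± 0.34 (log2 fold change), with adjusted p = 0.781. The 95% interval, from -0.95 to 0.39, lies within a 2-fold change in either direction.

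Pcsk7 (chromosome 9, 45906497 to 45929726, plus strand) is the most divergent of the constitutive enzymes and is known for shedding the transferrin receptor. The levels implied were 780 in WT and 706 in KO, and the authors' deposited table has -0.14 ± 0.31 with adjusted p = 0.896. Its interval, from -0.76 to 0.47, also stays within a 2-fold change. Furin and Pcsk7 sat close to genes of their own abundance, whose bin medians were -0.16 and -0.14. A share of 7.98% of the exon bases of Pcsk7 overlaps those of Rnf214 on the other strand, which stood at -0.17 ± 0.27 per the authors' deposited table. The sources used here do not give the strand setting of the counting, so reads in that overlap could belong to either gene.

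Pcsk4 (chromosome 10, 80321283 to 80329498, minus strand) encodes the convertase of spermatids and ovarian macrophages that is needed for full fertility in male mice. It fell from an implied 476 normalized counts in WT to 185 in Dot1l KO, 2.58-fold lower in KO. The authors' deposited table gives -1.37 ± 0.41 (95% interval -2.18 to -0.55), adjusted p = 0.0205. Of all genes, 1.41% had a fold change as low or lower. Over the alternatives its adjusted p went from 0.0205 to 1.0; the call was lost with the statistics scaled to their interquartile range (adjusted p = 0.231), under Bonferroni adjustment, and at a threshold of 0.01. No other annotated gene overlaps it.

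Pcsk4 lies 426 kb from Dot1l, on the same chromosome. Between the 2 genes 22 others were tested, of which 0 were called higher and 1 lower, with a median log2 fold change of -0.49 and a range from -0.98 to 0.32. The one called was Mex3d, an RNA-binding protein gene, at -0.71 ± 0.23 with adjusted p = 0.0321 per the authors' deposited table. None of the 22 had a fold change as low as that of Pcsk4. Within 1000 kb on either side of Dot1l, 119 genes were tested, Pcsk4 included, with 1 called higher (Misp, at 1.49 ± 0.46 per the authors' deposited table), 2 lower and a median of -0.39. Over all genes, 5.34% were called higher and 1.25% lower. By bin of mean count, the median of all genes was -0.17 in the bin of Dot1l and -0.05 in that of Pcsk4. In windows of 250 kb on either side the median was -0.44 around Dot1l and -0.41 around Pcsk4. Around members on other chromosomes it was -0.43 (Pcsk1n), -0.37 (Pcsk7), -0.24 (Pcsk2), -0.19 (Pcsk6) and about 0 (Furin). The immediate neighbours of Pcsk4 were 2310011J03Rik, at -0.93 ± 0.54, and Reep6, at -0.05 ± 0.25, per the authors' deposited table, and neither was called. Whether the edited locus has a part in the value of Pcsk4 was not tested.

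**Figure D2:**
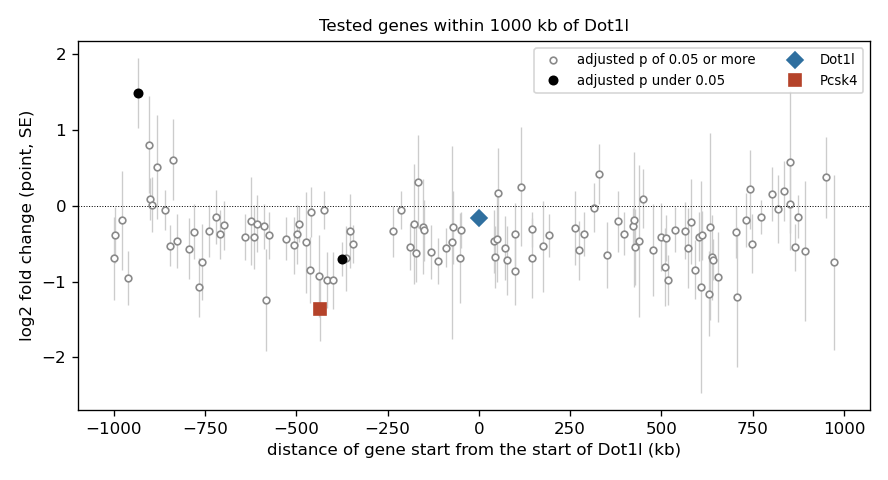
Log2 fold change (points, with SE as bars) of tested genes against the distance of their start from the start of Dot1l in kb; filled circles have an adjusted p under 0.05. Pcsk4, the red square at -1.37, is the lowest of the 119 tested genes, Dot1l, the blue diamond, is at -0.16, and the median of the tested genes is -0.39.

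The enzymes of the regulated pathway were scarce. Pcsk1 (chromosome 13, 75089826 to 75134861, plus strand) makes the first cuts in prohormones such as proopiomelanocortin and proinsulin. Its implied level was low, 31.1 normalized counts in WT and 67.4 in KO, 2.17-fold higher in KO. The authors' deposited table has 1.12 ± 0.45 (95% interval 0.24 to 1.99), adjusted p = 0.128, so it did not pass; over 6 alternatives its adjusted p was between 0.119 and 1.0. Genes of its abundance had a median of 0.32, and 12.5% of them were called higher, so that 0.80 was left after centring within bins. No other tested gene lies within 250 kb of it; the nearest were Cast, 281 kb away at -0.19 ± 0.32, and Gm4149, 510 kb away at -0.92 ± 0.52, neither of them called per the authors' deposited table.

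Pcsk2 (chromosome 2, 143546156 to 143816285, plus strand) completes prohormone cleavage in granules after Pcsk1. It was near the lower edge of the table, with a mean of 5.88 normalized counts where the lowest mean of any gene was 4.79. Implied levels were 7.84 in WT and 3.92 in KO, and the authors' deposited table gives -0.999 ± 1.20 with adjusted p = 0.778. Its interval, from -3.36 to 1.36, spans changes in both directions. Its exons share 260 bases with those of the antisense gene Pcsk2os1, which at a mean of 22.4 had -1.25 ± 0.83 and adjusted p = 0.504 per the authors' deposited table; without knowledge of strand in the counting, their reads cannot be told apart there. Scg5, the chaperone that Pcsk2 needs to mature, was as scarce, with a mean of 9.66 and -0.75 ± 1.34 per the authors' deposited table.

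Pcsk1n (chromosome X, 7919822 to 7924410, plus strand) had the highest mean of the members over both genotypes, 2215 normalized counts, though in KO the implied level of Pcsk6 was higher, 2484 against 1171. Its product proSAAS binds and inhibits the Pcsk1 enzyme through a peptide near its end. It fell from an implied 3258 normalized counts in WT to 1171 in Dot1l KO, 2.78-fold lower in KO. The authors' deposited table gives -1.48 ± 0.48 (95% interval -2.42 to -0.53), adjusted p = 0.0381. The call was lost when fold changes were centred within 20 bins of mean count, which left -1.26 with adjusted p = 0.133, with statistics scaled to their interquartile range (adjusted p = 0.313), under Bonferroni adjustment, and at a threshold of 0.01. Over all 7 alternatives the adjusted p went from 0.0381 to 1.0. Its exons share 135 bases, 6.16% of its exon length, with Eras, a Ras gene of embryonic stem cells on the opposite strand, which stood at -1.001 ± 0.42 with adjusted p = 0.155 per the authors' deposited table. Without knowledge of strand in the counting, reads in that overlap could belong to either gene. On the other side of Pcsk1n, Timm17b was at -0.33 ± 0.38 per the authors' deposited table. Within 250 kb, 28 other genes were tested, with 0 called higher, 3 lower and a median of -0.43. Of all genes, 1.25% were called lower. The fold changes in this window went from -1.64, below that of Pcsk1n itself, to 1.21. Among the 8 neuroendocrine markers tested 0 were called and their summed implied level was 7239 in WT and 5969 in KO, of which Uchl1 alone gave 6217 and 5021; their part in the value of Pcsk1n was not tested.

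Pcsk1 and its inhibitor gene therefore had fold changes of opposite sign. Pcsk1 was not called, however, and the call of Pcsk1n was lost with centring within bins of mean count. Per kb of exon, Pcsk1n stood 268 times above Pcsk1 in WT and 44.4 times in KO, by implied levels that carry no error. With the length of the first-numbered GENCODE transcript these were 241 times in WT and 39.9 times in KO. The implied level of Pcsk1 in WT was 31.1 normalized counts.

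To set the start regions of these 2 genes side by side, 120 bases of each, from 151 to 32 bases before the RefSeq start (GRCm38.p6), are shown 5′ to 3′, with the motif found in each in capitals. The first is chr13:75089706-75089825 on the plus strand, and the second is chrX:7919671-7919790 on the plus strand.
Pcsk1: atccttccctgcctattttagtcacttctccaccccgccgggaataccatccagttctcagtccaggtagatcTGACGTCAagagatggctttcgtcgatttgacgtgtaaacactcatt
Pcsk1n: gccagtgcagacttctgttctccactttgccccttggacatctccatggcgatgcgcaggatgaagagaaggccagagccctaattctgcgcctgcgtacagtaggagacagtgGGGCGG

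Windows of 300 bases, with 250 before the start, were searched on both strands for the cyclic AMP response element TGACGTCA, the GC box GGGCGG and the TATA box TATAAA. The 8 RefSeq windows used cover 7 of the 8 names (all but Pcsk4), with 2 starts for Furin. Pcsk1 alone among them held the cyclic AMP response element, at bases -78 to -71, which 1.79% of all 32851 windows hold. The GC box, present in 35.7% of all windows, was found in Pcsk2, Pcsk5, Pcsk6, Pcsk7, Pcsk1n, Pcsk1 and the downstream start of Furin. Overlapping matches were counted separately. The TATA box, present in 13.6% of windows, was found at the upstream start of Furin alone, at bases -23 to -18. In G and C content the windows ran from 49.3% for Pcsk1, below the median of all windows of 52.7%, through 58.7% for Pcsk1n to 82.3% for the downstream start of Furin. A match is a run of letters and says nothing about binding in these cells.

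Levels of different genes were compared as mean normalized counts per kb of exon. The order was Pcsk1n at 1010 per kb, Pcsk6 at 387, Pcsk7 at 143, Pcsk4 at 112, Furin at 91.5, Pcsk1 at 8.79 and Pcsk2 at 0.743. The length used here is that of all annotated exons of a gene together. With the length of the first-numbered GENCODE transcript in its place, a choice made after seeing the data, Furin stood at 201 per kb, Pcsk7 at 192 and Pcsk4 at 130, so that Furin came before both; the places of the other 4 genes were the same. Whether neighbours in that order differ beyond the spread of samples could not be tested without values per sample; Pcsk7, Pcsk4 and Furin lie close together. Among all genes Pcsk1n stood at percentile 90.5 per kb and Pcsk6 at 77.5, Furin was at 52.7, and Pcsk2 was at 0.353.

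The make-up of the RNA of the listed convertases, without Pcsk1n, differed between the genotypes by these implied levels. Pcsk6 held 41.4% of the summed level per kb in WT and 62.0% in KO, and Pcsk4 22.6% in WT and 8.09% in KO. Pcsk7 went from 21.0% to 17.6% and Furin from 14.1% to 10.7%. Pcsk1 and Pcsk2 together stayed a small part, Pcsk1 at 0.778% and 1.56%. The sum itself was 713 per kb in WT and 772 in KO. Mbtps1, a convertase outside the list, is not in this sum and had an implied 680 per kb in WT and 758 in KO. By the length of the first-numbered transcript Furin held 22.9% in WT and 17.9% in KO, more than Pcsk7 and Pcsk4 in WT, whereas Pcsk6 went from 36.0% to 55.6% and Pcsk4 from 19.4% to 7.17%. These shares carry no error and were not tested.

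**Figure D3:**
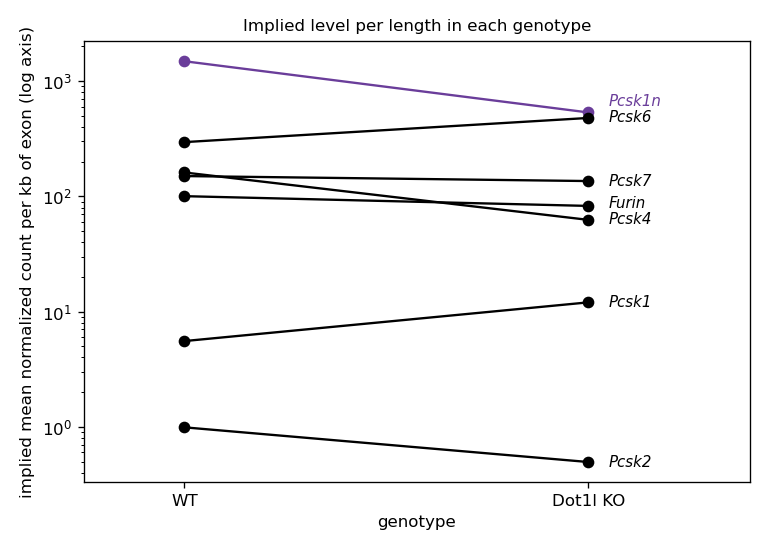
Implied mean normalized count per kb of exon in WT and in Dot1l KO on a log axis, 1 line for each gene, with no error bars because values per sample were not analysed. Pcsk1n (purple) comes down from 1486 to 534 per kb to about the level of Pcsk6, which goes up from 295 to 479. Pcsk4 comes down from 161 to 62.5; its place above Pcsk7 and Furin in WT holds for the length of all exons together and not for that of the first-numbered transcript.

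The place of each member among genes of its own abundance is part of what its fold change shows. Of the 20 bins of mean count, the lowest, which holds Pcsk2, had a median of 0.64, and the bin that holds Pcsk6 and Pcsk1n had one of -0.22. In that bin of 979 genes, 0.511% were called higher and 2.04% lower. In the bin of Pcsk4, 1.02% of 979 genes were called lower. After centring, the members stood at 0.91 (Pcsk6), 0.80 (Pcsk1), about 0 (Pcsk7, whose own value equals its bin's median to 2 decimals), -0.12 (Furin), -1.26 (Pcsk1n), -1.32 (Pcsk4) and -1.64 (Pcsk2). No member changed sign.

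**Figure D4:**
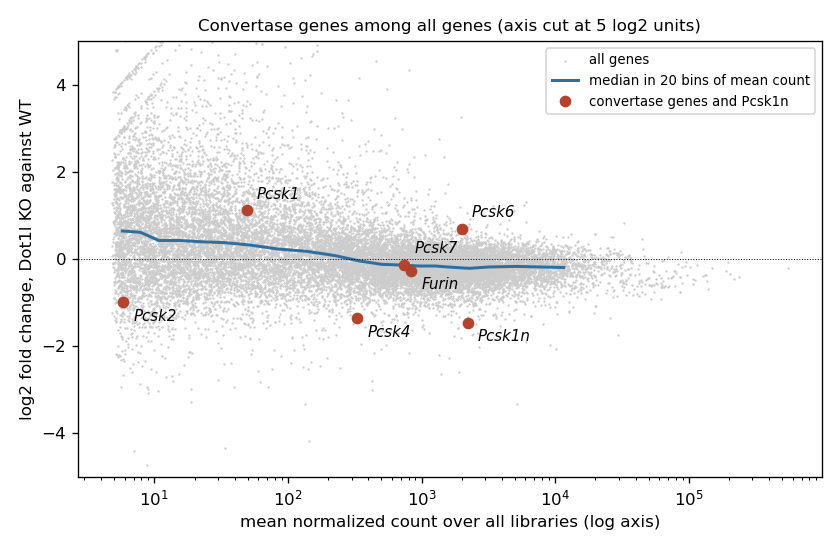
Log2 fold change (axis cut at 5 in either direction) against the mean normalized count (log axis) for all genes in grey, with the median in 20 bins of mean count as a blue line and the 7 listed genes in red. Furin and Pcsk7 lie near the line, Pcsk6 and Pcsk1 above it, and Pcsk4, Pcsk1n and Pcsk2 below it.

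The genes that lie next to the remaining members were not called. Beside Furin, Fes, 0.639 kb away, had 0.80 ± 0.45 and Blm, 49.3 kb away, had a log2 fold change of about 0 ± 0.34 per the authors' deposited table. Gm20684, a noncoding gene that starts beside Pcsk6 on the other strand, had 1.31 ± 0.58 with adjusted p = 0.193, and Snrpa1, on the far side, -0.44 ± 0.41, per the authors' deposited table. Next to Pcsk7 and Pcsk2 the scarce Gm48529 and Bfsp1 had 0.83 ± 1.22 and 1.88 ± 1.06 per the authors' deposited table. Within 250 kb of Furin 15 other genes were tested, with 1 called lower, and within 250 kb of Pcsk6, Pcsk7 and Pcsk2 there were 8, 12 and 4, with none called. The share of all genes called lower was 1.25%. The medians of these 4 windows were about 0, -0.19, -0.37 and -0.24.

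A convertase outside the list did not pass. Mbtps1 (chromosome 8, 119508156 to 119558735), the site-1 protease that starts the activation of the SREBP factors, was abundant, with a mean of 7578 and 0.16 ± 0.24 per the authors' deposited table, adjusted p = 0.837.

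Genes that act with the convertases were grouped in 10 lists of 134 gene names in all, of which 106 were tested. Of these, 3 were called higher and 0 lower, 2.83% in all beside 6.58% of the whole table, and their median log2 fold change was 0.10.

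Among enzymes that trim the cut ends of peptides, 2 of 7 rose and 0 fell, with a median of 0.44. The share of all genes called higher was 5.34%. Cpm, a carboxypeptidase of the cell surface that removes basic residues from the end of peptides, rose by 1.85 ± 0.43 per the authors' deposited table, adjusted p = 0.000773. Qpct, which closes the first residue of peptides into pyroglutamate, rose by 1.55 ± 0.37 per the authors' deposited table, adjusted p = 0.00117. Cpe, the carboxypeptidase of secretory granules, had 1.09 ± 0.43 with adjusted p = 0.118 per the authors' deposited table and did not pass. Under the scaled statistics 1 of the list was still called, and under Bonferroni adjustment 0.

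Cofactors, inhibitors and sorting proteins of the convertases had 1 rise and 0 falls among 8 tested, with a median of -0.03. Over the whole table, 5.34% of genes were called higher. The rise was Gbp2, an interferon-induced GTPase whose human counterpart lowers furin activity. Its implied WT level, 0.185 normalized counts, is below a floor of 3 reads over the WT group (1 per library), and its implied KO level was 15.0. The authors' deposited table gives 6.34 ± 1.57 (95% interval 3.26 to 9.42) with adjusted p = 0.00208 at a mean of 7.57, a fitted value that is no bound for a gene so near 0 in WT. The call was lost under the scaled statistics and under Bonferroni adjustment. Tdgf1 (Cripto), which brings Furin and Pcsk6 to the Nodal precursor, had a mean of 44589 and 0.46 ± 0.23 with adjusted p = 0.284 per the authors' deposited table. Serpinb8, whose human counterpart inhibits furin, had 1.92 ± 1.06 at a mean of 9.98 per the authors' deposited table, and was not called.

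Substrates of the convertases were set out in 5 lists of 95 gene names, of which Figf and Vegfd name the same gene. Among the 70 tested, DESeq2 called 0 higher and 0 lower; at an unadjusted p under 0.05 there were 7 higher and 6 lower, 13 in all, where 16.2% of all genes had such a p. The lowest p-values of the TGF-beta family belonged to Gdf3, a Nodal-related ligand, at -1.07 ± 0.46 with adjusted p = 0.167, to the Nodal inhibitor Lefty1, at -2.60 ± 1.18 with adjusted p = 0.211, and to Bmp4, at -0.74 ± 0.51, per the authors' deposited table. Nodal itself had -0.04 ± 0.43 per the authors' deposited table at a mean of 2320. The family's 15 tested members had a median of -0.08.

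Peptide hormone precursors, the substrates of Pcsk1 and Pcsk2, were mostly scarce, with 13 of 27 in the table and a median of 0.76. Scarce genes as a whole also lay above 0. Their median was 0.64 in the lowest bin of mean count and 0.32 in the bin of Pcsk1, so no rise particular to these precursors is read from 0.76. Galanin (Gal) had 3.27 ± 1.30, nociceptin (Pnoc) 1.70 ± 0.71 and proenkephalin (Penk) 1.10 ± 0.46 per the authors' deposited table, with adjusted p of 0.127, 0.157 and 0.159. Their means were 10.0, 25.5 and 61.2 normalized counts, and the implied WT level of Gal was 1.89. The exception in level was Trh, the precursor of thyrotropin-releasing hormone, named after its value was seen, with a mean of 15567 and -0.72 ± 0.64 per the authors' deposited table. Of the 8 granule proteins tested 0 were called and 0 had an unadjusted p under 0.05; their lowest p-values were those of Ptprn, at -0.54 ± 0.37, Cadps, at 0.78 ± 0.57, and Chga, at 0.40 ± 0.34, per the authors' deposited table.

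In the other 3 substrate lists the medians were 0.52 for growth factors (9 tested), 0.03 for receptors and adhesion proteins (19 tested) and 0.04 for metalloproteases (14 tested). The growth factor genes with the lowest p were the neurotrophin Bdnf, at 1.09 ± 0.53, the lymphatic factor Vegfd, at 0.78 ± 0.40, and Pdgfa, at -0.66 ± 0.35, per the authors' deposited table. Among receptors and adhesion proteins, the authors' deposited table has the fibrillin Fbn1 at 1.27 ± 0.53, the hepatocyte growth factor receptor Met at 1.20 ± 0.51 and the receptor-like kinase Ptk7 at -0.63 ± 0.29. Among metalloproteases the smallest p-values were those of Mmp14, at -0.94 ± 0.38 with adjusted p = 0.130, Adam19, at -1.03 ± 0.42 with adjusted p = 0.135, and Mmp16, at 1.78 ± 0.99, per the authors' deposited table.

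Among markers of other cell types, some of primitive endoderm and of fibroblasts were called higher, and none of neuroendocrine cells was called. Of all genes, 5.34% were called higher. For primitive endoderm, 7 of 10 were called higher, among them the adaptor Dab2, at 2.75 ± 0.43, the receptor Cubn, at 3.73 ± 0.61, and the collagen Col4a1, at 2.75 ± 0.52, per the authors' deposited table. Of the 7 fibroblast markers tested 4 were called higher, the first by p being Col1a2 at 4.03 ± 0.76, Thy1 at 1.25 ± 0.34 and Col1a1 at 1.41 ± 0.39 per the authors' deposited table. Their summed implied level nevertheless was 49105 in WT and 35314 in KO, most of it from Fn1, and Dcn, Lum and Postn are not among the genes analysed. Neuroendocrine markers had no call among 8, with 1 higher and 1 lower at an unadjusted p under 0.05, Th at 3.23 ± 1.35 from a mean of 7.61 and Neurod1 at -1.20 ± 0.48; the third by p was Snap25, at -0.82 ± 0.53, per the authors' deposited table. In bulk RNA, a change in the share of cells of a type and a change in RNA per cell cannot be told apart, and the part of any of these markers in the convertase values was not tested.

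**Figure D5:**
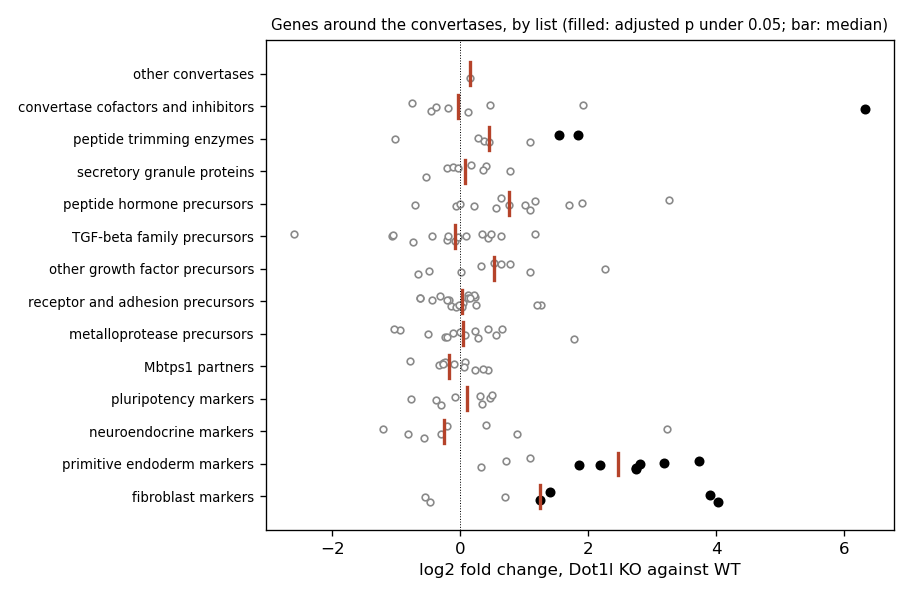
Log2 fold change (Dot1l KO against WT) of each tested gene in the 14 lists, with filled points for an adjusted p under 0.05 and a red bar at each list's median; vertical scatter within a list is only for visibility. Of the 10 convertase-related lists, 2 hold a filled point (Gbp2, and Cpm with Qpct), and the 5 substrate lists hold none.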

How the data were processed

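RNA from 3 Dot1l KO and 3 WT samples was compared. The submitters' processing notes name HISAT2 2.1.0, the mm10 build, featureCounts 2.0.0 and DESeq2; the DESeq2 version and the handling of strand and of multiply matching reads are not stated there. Per the file headers, each gene has a mean signal, that is the authors' average of counts divided by size factors. The deposited log2 fold changes come with standard errors. The deposited score is the Wald statistic, and it equals the ratio of these 2 columns. The deposited p-value belongs to that statistic; Benjamini-Hochberg adjustment over the 19564 genes with a p gave back the deposited adjusted values.

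The members, lists and alternatives were chosen with earlier results of these data known. No test of samples could be run, so all calls are those of the authors' DESeq2 comparison at an adjusted p under 0.05. Named genes were all members, Dot1l, the nearest tested gene on either side of each member and the 3 genes of each list with the smallest p; Trh, Scg5, Nodal, Fn1, Mex3d and Misp were added after their values were seen. Some genes of the lists are not reported here and are left out of their counts. Implied WT levels are 2 × mean / (1 + fold). Intervals are 95% from the standard error. Exon lengths and positions are from GENCODE M21 (GRCm38, the assembly of mm10), promoters from RefSeq. Repeat copies could not be placed: 0 of the 26255 names hold coordinates. Alternatives are given in the closing section. Recomputed adjustments were run on simulated data with the same shift for every gene. Centring within bins was thus not checked under a shift that varies with mean count, as it does in these data. Python 3.11.15, pandas 2.3.3, scipy 1.17.1 and biopython 1.88 were used.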

Additional observations from a re-analysis of the deposited data

How the results depend on the processing

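Across the 7 alternatives run, the number of the 7 members called was 0 at a threshold of 0.01, 0 with Wald statistics scaled to their interquartile range and 0 under Bonferroni adjustment, with 4 members at an unadjusted p under 0.05. It was 2 under the others; with centring within bins of mean count these were Pcsk4, lower, and Pcsk6, higher, with Pcsk1n lost. Of 106 tested genes in the convertase-related lists 3 were called; the number was 2 at a mean count of at least 50, 1 with scaled statistics and 0 under Bonferroni adjustment. The smaller thresholds and larger adjustments are stricter by construction, and a minimum of 50 leaves out Gbp2. Over all genes, the calls of 1044 higher and 244 lower became 752 and 159 with centring within bins, 661 and 106 at a threshold of 0.01, 517 and 220 at a mean of at least 50, 405 and 50 with scaled statistics, and 275 and 34 under Bonferroni adjustment. No member's fold change turned its sign, though Pcsk1 and Pcsk2 are not tested at a minimum of 50. The 4 lists of cell markers kept 4 calls for primitive endoderm and 1 for fibroblast under scaled statistics.

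No paired analysis was possible because the deposited tables carry no values per sample. For the same reason leaving out single replicates and other size factors were not run. Library depth is not known; the interval of Pcsk2, whose mean was 5.88 normalized counts, was the widest among the members. Levels per kb depend on the length used: with the first-numbered transcript the mean of Furin was 201 per kb in place of 91.5, and that of Pcsk2 1.24 in place of 0.743.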

Other observations

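Genes that work with Mbtps1, the convertase outside the list, were spread around 0. Of 12 partners tested, which include the SREBP factors and their escorts and the ATF6 factors, DESeq2 called 0 higher and 0 lower, with 0 at an unadjusted p under 0.05 and a median log2 fold change of -0.17. The membrane-bound factors Creb3 and Creb3l1 had -0.79 ± 0.42 and 0.43 ± 0.34 per the authors' deposited table, with adjusted p of 0.342 and 0.603. Atf6b, a stress sensor of the endoplasmic reticulum that Mbtps1 cuts, was at -0.33 ± 0.28 per the authors' deposited table.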
